A study of Mus musculus with 9 samples.

Results

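Homeobox transcription factors were examined in whole mouse skin: the Hox genes of clusters A, B, C and D, and the Dlx, Msx, Lhx, Pitx, Prrx, sine oculis-related (Six2 and paralogues), Meis and Pbx families. The members were chosen by gene symbol, as every probe set (a group of short probes for 1 transcript) that the platform annotation gives a single symbol of these families. This took in 78 probe sets for 63 genes, out of 10833 probe sets with a single gene on the array. Of the 78, 5 belong to opposite-strand transcripts that carry a family name (Dlx1as, Dlx6os2 and Hoxa11os), and the other 73 to the homeobox genes themselves. A further 3 probe sets annotated to more than 1 Hox gene (Hoxb8 with Hoxb7, and Hoxd3 with Hoxd4) are no members.

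The skin came from unirradiated mice on the C57BL/6 background. The knockout group was 5 mice that lack CD1d (Cd1d -/-), the molecule that presents lipids to natural killer T cells, and the control group was 4 wild-type mice (Cd1d +/+), matched for age and sex. Each mouse had an Affymetrix MG-U74 array of its own. The labels give neither the ages, the body site of the skin, the deleted part of Cd1d nor whether the groups were littermates, and the deletion is not limited to a cell type.

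Homeobox proteins bind DNA through a homeodomain and fix the identity of body regions and cell types. The Hox genes lie in 4 clusters, and their order along a cluster, numbered as paralogue groups, follows their domains along the body from head to tail and from the root of a limb to its tip. Skin fibroblasts keep such a Hox pattern in the adult. In the hair follicle, Dlx3 and Msx2 act in the matrix and in the differentiating hair shaft, where Msx2 responds to bone morphogenetic protein signals. Meis and Pbx proteins are partners that bind DNA together with Hox proteins.

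Signals are in arbitrary units, scaled alike in every array, and a level of a probe set can be compared between mice but not with another probe set. A probe set was kept for testing where 4 or more of the 9 arrays had its signal at the array's 40th percentile or higher. Across arrays that percentile lay at signals from 43.4 to 53.3. Of all 12422 probe sets other than controls 7658 (61.6%) were kept, and of the 78 members 32, for 28 genes. The 46 members that were not kept comprise 35 below the percentile in all 9 arrays and 11 that reached it in 1 to 3 arrays. The percentile is not a detection call, and the level at which a probe set rises above its background is unknown. Among the markers of the tissue, the keratinocyte genes Krt10, Krt1 and Lor were kept with all 9 arrays above the percentile, as were all 7 measured fibroblast markers. The probe sets of the basal keratins Krt5 and Krt14 were below it in all 9 arrays, at signals of at most 28 and 36.5. The targeted gene Cd1d1 read 60.3 ± 12.7 in knockout (SD, n = 5) and 109 ± 16.7 in wild-type skin (SD, n = 4).

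Most probe sets for Hox genes of the middle of the clusters reached the percentile. Since probe sets differ in their response, a probe set below it does not show that its gene is low, and the counts describe these probe sets. Of the probe sets for paralogue groups 5 to 9, 16 of 18 (88.9%) were kept, for 14 of 15 genes. Of those for groups 1 to 4, 3 of 12 (25.0%) were kept, for 3 of 8 genes. Of those for groups 10 to 13, 0 of 8 were kept, and each of these 8 lay below the percentile in all 9 arrays. The counts for groups 1 to 4 and 5 to 9 were taken over both genotypes together and not split. The highest signal of these 8 was 49.5, that of Hoxb13 in wild type 3, where the percentile lay at 50.6. These counts leave out the opposite-strand transcript Hoxa11os. A probe set of Hoxa11os reached the percentile in 2 arrays, at 69.5 in knockout 1 and 84.3 in knockout 5, and its other probe set in 0.

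In cluster A, on chromosome 6, Hoxa2, Hoxa5 and Hoxa7 reached the percentile in 9 of 9 arrays and Hoxa9 in 7. Hoxa3 reached it in 3 arrays, and Hoxa10, Hoxa11 and Hoxa13 in 0. Hoxa6 has 2 probe sets, which reached it in 9 and in 4 arrays. In cluster B, on chromosome 11, Hoxb5, Hoxb6, Hoxb7 and Hoxb8 reached it in 9 of 9 arrays. Hoxb1 and Hoxb3 reached it in 3 and 2 arrays, and Hoxb4, Hoxb9 and Hoxb13 in 0. Thus the neighbours Hoxb8 and Hoxb9 fell on different sides of the filter.

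In cluster C, on chromosome 15, all 5 measured genes were kept, Hoxc8 with 9 of 9 arrays, Hoxc9 with 8, Hoxc5 with 7, Hoxc6 with 5 and Hoxc4 with 4. In cluster D, on chromosome 2, both Hoxd8 probe sets reached the percentile in 9 of 9 arrays and Hoxd9 in 7, while Hoxd1, Hoxd10, Hoxd11, Hoxd12 and Hoxd13 reached it in 0. The edge between kept and not kept therefore lay between groups 9 and 10 in clusters A and D, where genes of both groups were measured.

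**Figure D1:**
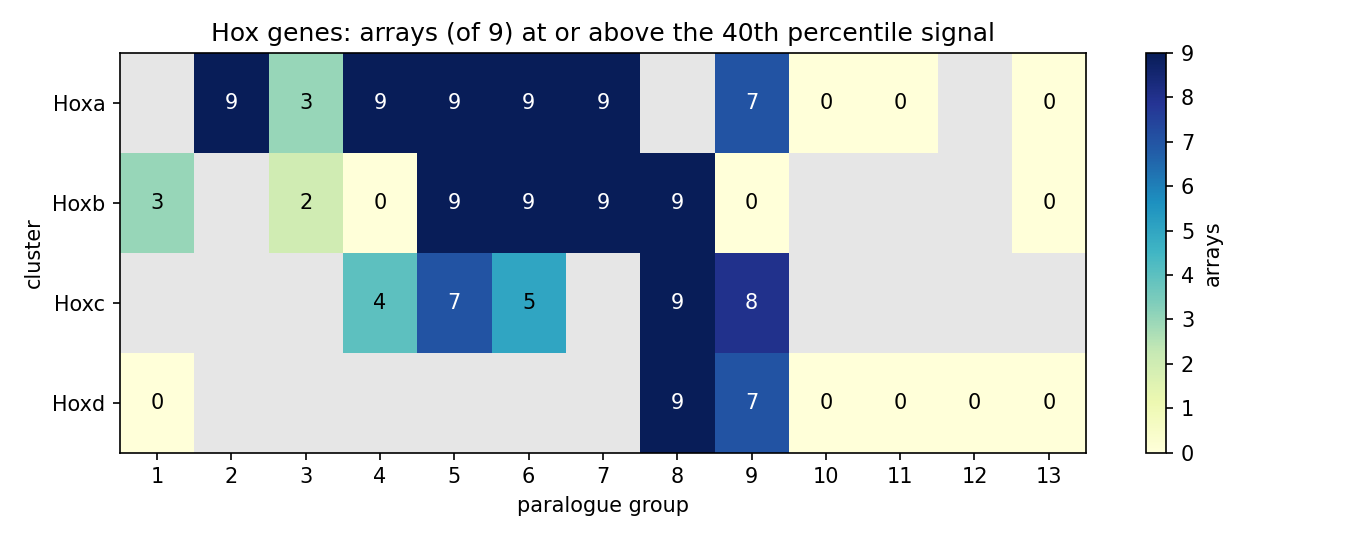
Number of arrays, of 9, in which each Hox gene reached the 40th percentile signal, by cluster (rows) and paralogue group (columns). Where a gene has several probe sets the highest number is shown. Grey cells had no member probe set, and opposite-strand transcripts are left out. Groups 5 to 8 are dark in every measured gene other than Hoxc5 (7) and Hoxc6 (5), and groups 10 to 13 read 0 throughout.

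The calls of Hoxa4 and Hoxb8 each rest on a single probe set of a design that Affymetrix marks as less strict (suffix r). For Hoxa4 that probe set reached the percentile in 9 of 9 arrays, whereas its other 3 reached it in 0. For Hoxb8 the numbers were 9 for the one and 0 for the other. A Hoxa6 probe set with 9 of 9 arrays is of the same design. The only Hoxc9 probe set and the other Hoxa6 probe set carry the suffix f. Affymetrix uses it where probes may match several related sequences. A probe set shared by Hoxb8 and Hoxb7 reached the percentile in 9 of 9 arrays too, and cannot be assigned to either gene.

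No Hox gene passed the test between knockout and wild-type skin. Of the 19 kept Hox probe sets 8 had higher and 11 lower values in the knockout, with a median log2 difference (knockout minus wild type, as throughout) of -0.018, against 0.007 over all kept probe sets. Of the 19, 18 lay within 0.5 of zero on the log2 scale. 0 passed limma's test at an adjusted p of 0.05, and 0 had an unadjusted p under 0.05, the smallest being 0.114. Over all kept probe sets, 0.0522% passed the adjusted threshold and 9.40% had an unadjusted p under 0.05 (5.45% higher and 3.96% lower in the knockout). The standard errors ran from 0.14 to 0.55, which limits the size of a shift that could be resolved.

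Hoxc8, a gene of the trunk, read 214.8, 236.3, 201.5, 188.2 and 197.7 in the knockout mice 1 to 5 and 212.9, 152.9, 206.8 and 181.1 in the wild-type mice 1 to 4. The groups overlapped and the spread was narrow in each. The log2 difference was 0.15 (SE 0.14, 95% interval -0.15 to 0.45, limma adjusted p = 0.782).

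Hoxd8 was read by 2 probe sets that gave differences of opposite sign, both within error. The first read 219.9, 255.1, 340.7, 248.6 and 224.9 in the knockout mice 1 to 5 and 320.3, 187.7, 253.5 and 318.8 in the wild-type mice 1 to 4 (log2 difference -0.05, SE 0.19, 95% interval -0.47 to 0.36). The second had a wild-type range of 210.3 to 229.7 and a knockout range of 203.1 to 303.4 (log2 difference 0.15, SE 0.15). Values of the groups overlapped at both.

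The kept Hoxb8 probe set had the lowest difference of the kept Hox probe sets, -0.48 (SE 0.28, 95% interval -1.10 to 0.14, limma adjusted p = 0.625). It read 292.4, 278.7, 259.4, 96.9 and 236.4 in the knockout mice 1 to 5 and 334.3, 277.8, 293.8 and 311.8 in the wild-type mice 1 to 4. Knockout 4 stood far below the other mice, and the difference without it was -0.19. Hoxa4 had the same shape, with 684.1, 688.1, 598.2, 284.1 and 568.6 in the knockout and 665.8, 620.9, 599.1 and 525.3 in the wild-type mice. Its log2 difference was -0.16 (SE 0.23), and 0.07 without knockout 4. The other Hoxb8 probe set, dim and not kept, went the opposite way, with a log2 difference of 1.14 (SE 0.57) with no filter. The probe set shared by Hoxb8 and Hoxb7 read 121.5 to 196.4 in knockout and 102.1 to 173.6 in wild-type mice.

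The remaining kept Hox genes had differences between -0.37 (Hoxc4) and 0.72 (the Hoxa6 probe set with 4 arrays at the percentile). Among the knockout mice Hoxc4 reached the percentile only in knockout 5, at 56.4, so it passed the filter mainly through wild-type mice. Hoxa5 read 148 ± 14.6 against 129 ± 25.2, with a log2 difference of 0.22 (SE 0.16). Hoxb6 read 241 ± 53.3 against 227 ± 23.5, with a log2 difference of 0.07 (SE 0.18). The value of 0.72 (SE 0.55) for Hoxa6 came from a wild-type spread of 7.7 to 58.4, and was 0.11 without wild type 2, whereas its other probe set gave 0.12 (SE 0.16). Hoxc6 likewise ranged from 12.8 in wild type 2 to 86.4 in wild type 3, and its difference was -0.02 (SE 0.51).

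The Hox signals varied between arrays within each genotype. Relative to each probe set's mean over the 9 arrays, the median of the 19 kept Hox probe sets was 0.12, 0.04, 0.13, -0.15 and -0.02 in the knockout mice 1 to 5 and 0.07, -0.27, 0.20 and 0.14 in the wild-type mice 1 to 4, on the log2 scale. Wild type 2 and knockout 4 had the lowest medians. The same medians over all kept probe sets ran from -0.06, in wild type 2, to 0.05, in knockout 4. Of the 32 kept members, 11 had their lowest value in knockout 4 (34.4%, against 20.1% of all kept probe sets) and 9 in wild type 2 (28.1%, against 21.8%). Knockout 4 also held the highest value of 6 kept members (18.8%, against 21.1%), 5 of them Hox probe sets, so its values were spread widely in both directions. Knockout 4 also had the highest summed signal of the 7 measured keratinocyte markers, 28934 against 16450 to 19674 in the other knockout and 18650 to 20244 in the wild-type mice. Whether this has a part in the low Hox values of that array was not tested.

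**Figure D2:**
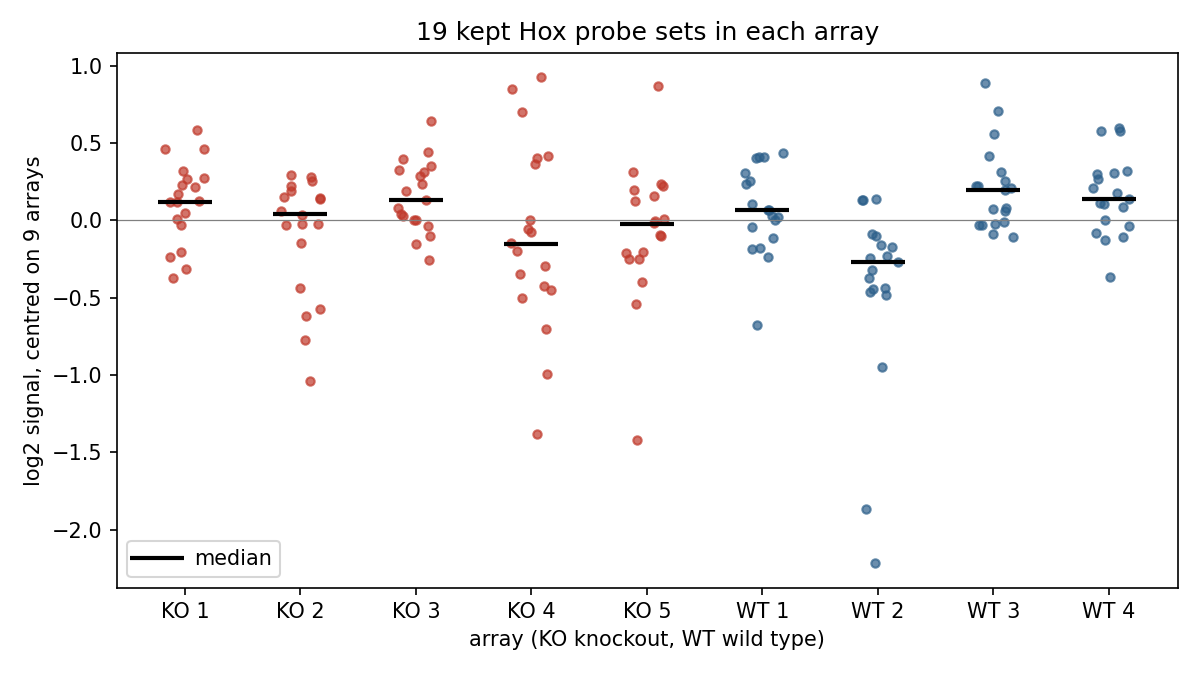
Log2 signal of the 19 kept Hox probe sets in each array, centred on each probe set's mean over the 9 arrays; points are probe sets and bars are medians, with knockout in red and wild type in blue. The medians lie between -0.27 (wild type 2) and 0.20 (wild type 3), and the knockout and wild-type medians overlap.

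The follicle regulators Dlx3 and Msx2 showed another pattern, high in 3 knockout mice and at or near the wild-type level in the other 2. Dlx3, on chromosome 11, read 542.5, 847.0, 131.2, 154.0 and 514.6 in the knockout mice 1 to 5 and 163.6, 136.1, 153.3 and 174.9 in the wild-type mice 1 to 4. Knockout 1, 2 and 5 lay above every wild-type mouse, knockout 3 lay below the wild-type range and knockout 4 inside it. The means were 438 ± 300 (SD, n = 5) and 157 ± 16.5 (SD, n = 4). The log2 difference was 1.14 (SE 0.49, 95% interval 0.07 to 2.20). Its unadjusted p was 0.0382 in limma and its adjusted p 0.511, so Dlx3 did not pass the threshold. It was 1 of the 32 kept members, and no other, with an unadjusted p under 0.05, against 9.40% of all kept probe sets. Without knockout 2 the difference was 0.81 (unadjusted p = 0.0880).

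Msx2, on chromosome 13, read 133.8, 298.9, 23.2, 4.6 and 130.8 in the knockout mice 1 to 5 and 7.7, 7.5, 8.5 and 5.6 in the wild-type mice 1 to 4. Again knockout 1, 2 and 5 were high. Knockout 3 was above the wild-type range by a smaller margin, at a signal far below the percentile, and knockout 4 was the lowest of all 9 mice. The gene reached the percentile in only 3 arrays, so it was not kept and was not tested in the main comparison. With no filter, its log2 difference was 2.96 (SE 0.99, limma adjusted p = 0.490 over 12422 probe sets). The wild-type signals lie at the low end of the scale, where the size of a log difference is uncertain: with 16 added to each signal it was 1.93, and with 64 added 1.10.

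Dlx2, a paralogue of Dlx3 on chromosome 2, had the same order at lower signals. It read 61.3, 92.8, 4.7, 12.4 and 44.4 in the knockout mice 1 to 5 and 16.1, 14.7, 11.2 and 12.8 in the wild-type mice 1 to 4. It reached the percentile in 2 arrays and was not kept, and its log2 difference with no filter was 1.00 (SE 0.75, limma adjusted p = 0.766). Dlx4, the neighbour of Dlx3 on chromosome 11, read 34.4, 76.1, 12, 9.4 and 15.2 in the knockout and 14.7 to 22.5 in the wild-type mice. There knockout 1 and 2 were high and knockout 5 was inside the wild-type range.

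Dlx5, kept with 5 arrays at the percentile, read 34.7, 40.3, 53.3, 48.8 and 31.3 in the knockout mice 1 to 5 and 38.8, 48.1, 57.2 and 76.3 in the wild-type mice 1 to 4, with its lowest values in knockout 5 and knockout 1. Its log2 difference was -0.39 (SE 0.27, limma adjusted p = 0.701). Dlx1 read 7.3, 5.3, 1.7, 2.0 and 3.8 in the knockout and 1.6 to 3.0 in the wild-type mice. Knockout 1, 2 and 5 were its highest mice too, at signals far below the percentile. Dlx6 stayed at or below a signal of 23.0 in every array. Msx3, a gene known from the neural tube, reached the percentile in 3 arrays and was not kept, at 17.8 to 52.4 in knockout and 26.9 to 76.6 in wild-type mice.

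Probe sets with at least 3 knockout mice above the highest wild-type mouse were common on the array. There were 9 among the 78 members, against 14.9% of all probe sets, and 3 of the 32 kept members (Dlx3, Hoxb6 and a Hoxd8 probe set), against 15.4% of all kept probe sets. For Dlx3, Msx2, Dlx2 and the very dim Dlx1 the mice concerned included knockout 1, 2 and 5. The same held for Hoxb6 and for a very dim Hoxa11os probe set, so this order was not limited to the Dlx and Msx genes. The shares above are for any 3 knockout mice. How many of all probe sets have knockout 1, 2 and 5 above the wild-type mice was not counted. Hoxb6 read 278.3, 284.4, 208.3, 163.6 and 272.8 in the knockout mice 1 to 5 and 197.8 to 248.8 in the wild-type mice.

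The level of hair follicle transcripts moved with Dlx3, Msx2 and Dlx2. A list of hair keratins, inner root sheath genes and keratin-associated proteins had 19 kept genes of 26 measured, 15 higher and 4 lower in the knockout, with 0 past limma's adjusted threshold, 6 at an unadjusted p under 0.05 and a median log2 difference of 1.52. Centred on its mean, the list's median took the values 0.58, 2.81, -0.76, -1.79 and 2.56 in the knockout mice 1 to 5 and -0.87, -1.38, 0.06 and -0.78 in the wild-type mice 1 to 4. The summed signal of the 26 genes ran from 6735 to 49414 in knockout and from 6879 to 9301 in wild-type mice, the highest being those of knockout 2, 5 and 1. With this median as a covariate the log2 difference of Dlx3 was 0.42 (SE 0.29, limma adjusted p = 0.617). Melanocyte markers moved too, with summed signals of 1341, 1804, 454, 362 and 699 in the knockout mice 1 to 5 and 348 to 456 in wild-type mice, over 6 measured genes of which Tyr, Tyrp1 and Oca2 were not kept. The part of the follicle in the Dlx3 values was not tested beyond that covariate. For Msx2, which was not kept, it was not tested, and the part of melanocytes was tested for neither gene. In whole skin, fewer cells of a type and less RNA per cell cannot be told apart.

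**Figure D3:**
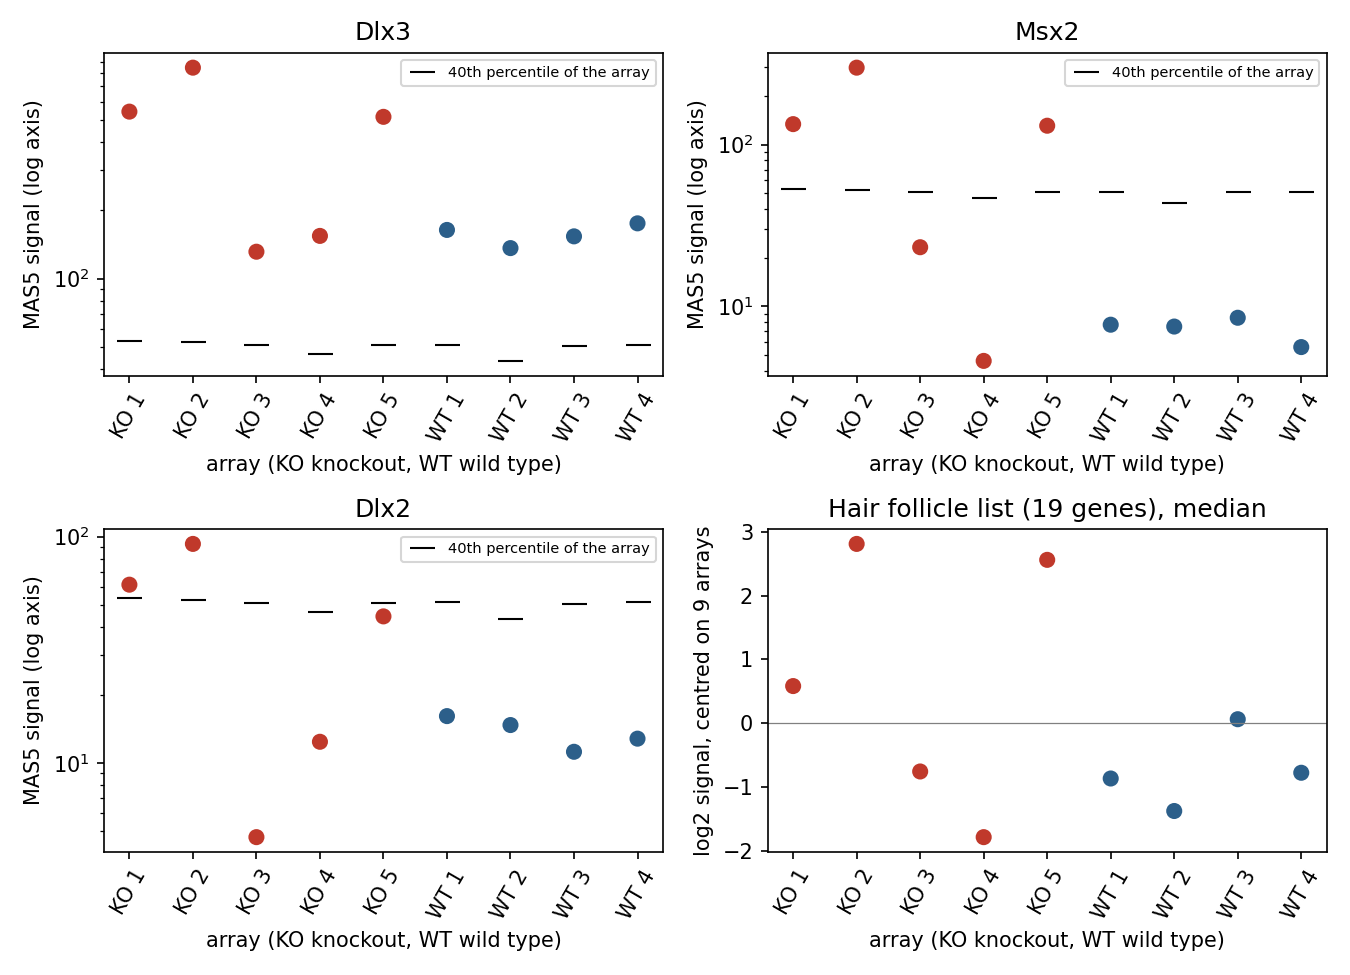
MAS5 signal of Dlx3, Msx2 and Dlx2 in each array (log axes; short bars mark the 40th percentile of the array), and the median of 19 kept hair follicle genes in the same arrays on a centred log2 scale. Knockout 1, 2 and 5 are the highest arrays in all 4 panels, for example at 542.5, 847.0 and 514.6 for Dlx3, while the 4 wild-type arrays lie between 136.1 and 174.9 there.

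The deposited values carry 7 decimals in knockout 1 and 2 and wild type 2, 3 and 4, and 9 decimals in the other 4 arrays, and what this marks is not stated. Within the 7-decimal arrays the Dlx3 difference was 2.14 (SE 0.24) and passed limma's test (adjusted p = 0.0300), 1 of 32 kept members to do so, against 0.131% of all kept probe sets in that fit. Within the 9-decimal arrays, with wild type 1 as the only control, it was 0.42 (SE 0.76, limma adjusted p = 0.998). With the number of decimals as a block it was 1.48 (SE 0.45, limma adjusted p = 0.500). Since knockout 1 and 2 are the only knockout mice of the first set, that call rests on 2 of the 3 mice with high Dlx3.

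Promoter sequence is shown for Msx2 and Dlx2, the pair of members with this profile for which RefSeq promoters (build GRCm38.p6) were at hand. Each run covers the 250 bases before the gene's start, 5′ to 3′ on the gene's own strand. For Msx2 it is chr13:53472781-53473030, minus strand, and for Dlx2 chr2:71546755-71547004, minus strand. Capitals mark a match to any of 5 motifs searched on both strands.
Msx2: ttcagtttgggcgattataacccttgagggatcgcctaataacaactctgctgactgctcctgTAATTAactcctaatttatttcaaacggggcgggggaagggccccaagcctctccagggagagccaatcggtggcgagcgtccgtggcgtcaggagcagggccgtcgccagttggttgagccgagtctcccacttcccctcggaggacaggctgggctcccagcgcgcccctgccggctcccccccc
Dlx2: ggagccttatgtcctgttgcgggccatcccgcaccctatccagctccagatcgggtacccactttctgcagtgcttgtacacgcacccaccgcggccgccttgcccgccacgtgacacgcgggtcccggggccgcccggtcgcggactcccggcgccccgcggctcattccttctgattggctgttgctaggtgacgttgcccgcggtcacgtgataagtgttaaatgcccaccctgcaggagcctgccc

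The motifs were TAATTA, the palindrome many homeodomains bind, CAATTA, a form bound by Msx proteins, TGATNNAT, a composite of Pbx with Hox, TGACAG, bound by Meis proteins, and CTTTGAA, bound by LEF and TCF factors. TAATTA and CAATTA share 5 letters. The Msx2 window holds TAATTA, starting 187 bases before the gene's start, and no other of the 5. The Dlx2 window holds 0 of the 5. Promoters were found for 44 of the 63 member genes (50 windows). TAATTA was in 4 of the 50 member windows and in 4.84% of all 32851 windows, CAATTA in 2 and 7.17%, TGATNNAT in 4 and 7.68%, TGACAG in 9 and 15.9%, and CTTTGAA in 1 and 4.46%. The GC content was 61.6% in the Msx2 and 66.4% in the Dlx2 window, against medians of 61.6% over the member windows and 52.4% over all windows. These matches describe letters and mark no binding site.

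Prrx1 and Prrx2, paired-related homeobox genes of limb and dermal mesenchyme, had higher values in the knockout without passing the test. Prrx1 read 91.4, 86.0, 88.1, 106.4 and 100.0 in the knockout mice 1 to 5 and 86.1, 47.2, 55.7 and 92.8 in the wild-type mice 1 to 4. The knockout values were close to each other, and wild type 1 and 4 lay among them while wild type 2 and 3 lay below. The log2 difference was 0.47 (SE 0.22, unadjusted p = 0.0509, limma adjusted p = 0.531), and it was 0.30 without wild type 2. Prrx2 read 146.7, 132.7, 122.4, 136.8 and 165.6 in the knockout and 174.4, 137.0, 99.9 and 79.9 in the wild-type mice, a log2 difference of 0.25 (SE 0.21, limma adjusted p = 0.756). The fibroblast markers had 5 of 7 genes higher and 2 lower, with 0 past limma's adjusted threshold and a median log2 difference of 0.36. Their summed signal ran from 16437 to 26175 in knockout and from 16274 to 22280 in wild-type mice. The part of fibroblast content in the Prrx values was not tested.

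Msx1, a mesenchymal and epithelial partner of Msx2 in skin appendages, did not share the Msx2 profile. It read 112.2, 156.5, 101.3, 43.1 and 111.5 in the knockout mice 1 to 5 and 116.3, 89.4, 17.9 and 78.7 in the wild-type mice 1 to 4. The groups overlapped, with low values in knockout 4 and wild type 3. The log2 difference was 0.65 (SE 0.52, limma adjusted p = 0.732) and 0.05 without wild type 3.

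Pitx1, best known as a gene of the hindlimb, reached the percentile in 9 of 9 arrays. It read 141.3, 116.7, 114.8, 60.4 and 127.6 in the knockout mice 1 to 5 and 148.4, 150.2, 97.8 and 126.9 in the wild-type mice 1 to 4. Knockout 4 was low again. The log2 difference was -0.26 (SE 0.24, limma adjusted p = 0.784), and -0.05 without knockout 4. Pitx3, a gene of the lens and of dopamine neurons, was not kept, and reached the percentile only in knockout 1, at 68.5.

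Of the sine oculis-related genes, which act in muscle, sensory organs and kidney, Six4 and Six2 were kept and Six3, Six5 and Six6 were not. The kept Six4 probe set read 34.0, 72.0, 54.7, 52.3 and 62.6 in the knockout mice 1 to 5 and 65.6, 34.0, 79.6 and 86.7 in the wild-type mice 1 to 4, a log2 difference of -0.23 (SE 0.31, limma adjusted p = 0.849). The other 2 probe sets of Six4 reached the percentile in 2 arrays and in 0. Six2 lay between 18.3 and 67.9 in knockout and between 42.9 and 55.3 in wild-type mice, and its log2 difference of -0.16 (SE 0.35) was 0.15 without knockout 4. Skeletal muscle markers had 9 of 9 kept genes lower, 0 of them past limma's adjusted threshold, with a median log2 difference of -0.21. Their summed signals were 37712 to 45396 in knockout and 41459 to 59013 in wild-type mice over 10 measured genes. The part of muscle content in the Six2 and Six4 values was not tested.

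The Pbx partners of the Hox proteins were kept and even, and the Meis partners were not kept. Pbx3 was read by 3 kept probe sets, each at the percentile in 9 of 9 arrays. The one with the highest mean signal read 113.1, 74.6, 78.0, 100.5 and 93.6 in the knockout mice 1 to 5 and 79.2, 75.0, 106.8 and 83.6 in the wild-type mice 1 to 4. The groups overlapped, and the log2 differences of the 3 probe sets were 0.09 (SE 0.18), 0.02 (SE 0.23) and -0.07 (SE 0.18). Pbx2 read 69.3 ± 6.49 against 76.8 ± 11.1 (log2 difference -0.14, SE 0.17). Meis1, Meis2 and Meis3 lay below the percentile in all 9 arrays, with highest signals of 35.3, 22.3 and 41.5.

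The Lhx genes are LIM-homeodomain factors, and Lhx2 had no member probe set. Of the 6 measured Lhx genes only Lhx1 was kept, with 5 arrays at the percentile. These were the 4 wild-type arrays and knockout 2. Lhx1 thus passed the filter mainly through the group where it was high, and its difference is given as a value only. It read 46.5, 88.6, 43.8, 26.9 and 45.0 in the knockout mice 1 to 5 and 66.2, 46.8, 63.1 and 56.0 in the wild-type mice 1 to 4. The groups overlapped and knockout 4 was the lowest mouse. The log2 difference was -0.31 (SE 0.31, limma adjusted p = 0.793). Lhx3, Lhx5, Lhx8 and Lhx9 were below the percentile in all 9 arrays. Lhx6 reached it in 2 arrays and was not kept, but its values did not overlap between the groups, at 42.8, 47.3, 45.9, 30.2 and 32.4 in the knockout and 50, 47.7, 66.9 and 47.8 in the wild-type mice.

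Over all members, 0 of the 32 kept probe sets had groups without overlap, against 3.21% of all kept probe sets. With no filter 2 of 78 members did, Lhx6 and Hoxa10, both lower in the knockout, against 2.87% of all 12422 probe sets (1.22% lower and 1.64% higher). Hoxa10 read 0.9, 0.3, 2.2, 3.2 and 3.2 in the knockout and 8.4, 7.8, 9.6 and 5.4 in the wild-type mice, far below the percentile. With no filter 7 members had an unadjusted p under 0.05 in limma, against 8.51% of all probe sets, and 0 passed after adjustment, against 0.0483%. They were Dlx3, Msx2 and Hoxa11, higher in the knockout, and Hoxa10, Hoxd12, a probe set of Dlx6os2 and a dim probe set of Hoxa4, lower. Hoxa11 read 21.0, 11.9, 13.2, 16.1 and 6.1 in the knockout and 4.2, 2.9, 3.5 and 6.4 in the wild-type mice, overlapping at knockout 5. Hoxd12 read 1.7, 3.8, 1.7, 1.3 and 2.1 against 3.1, 4.1, 18.3 and 10.2. The signals of Hoxa10, Hoxa11 and Hoxd12 were dim, below the percentile in every array. That Dlx6os2 probe set read 7.9, 9.2, 6.1, 3.2 and 19.3 against 23.0, 13.3, 14.2 and 18.6. The dim Hoxa4 probe set read 12.3, 25.0, 16.8, 14 and 14.9 against 27.3, 21.5, 32.4 and 32.2. Both were below the percentile in every array as well, with groups that overlapped. The other Dlx6os2 probe set read 5.9 to 32.4 in knockout and 18.7 to 26.6 in wild-type mice (log2 difference -0.42 with no filter, SE 0.45).

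**Figure D4:**
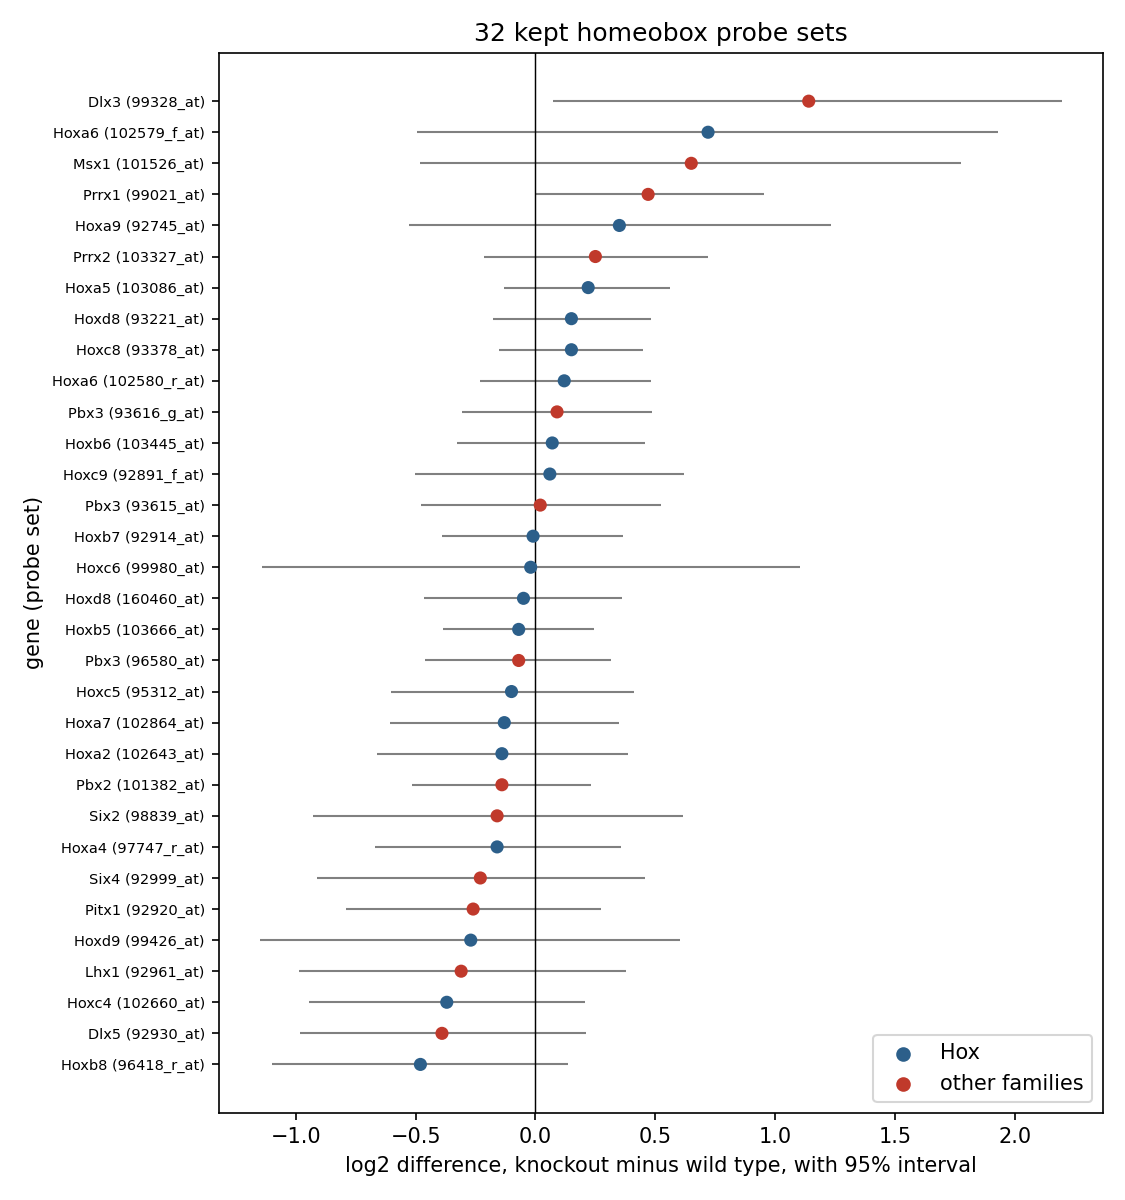
Log2 difference (knockout minus wild type) of the 32 kept homeobox probe sets with 95% intervals from limma, Hox genes in blue and other families in red. The interval of Dlx3 (0.07 to 2.20) lies above 0 and those of the other probe sets reach or cross it; 0 of the 32 passed the adjusted threshold.

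The 32 differences had a median of -0.035, with 14 higher and 18 lower in the knockout, against 51.2% higher over all kept probe sets. The spread within a group differed between members. The SD of log2 signal among knockout mice was 1.20 for Dlx3, larger than for 99.0% of kept probe sets, and 0.15 among wild-type mice. For Prrx1 it was the other way round, with 0.13 in knockout and 0.48 in wild-type mice. The median SD over the kept Hox probe sets was 0.35 in knockout and 0.27 in wild-type mice, against 0.25 and 0.26 over all kept probe sets.

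Other regulators of the follicle, outside the homeobox families above or of other homeobox classes, were measured for 22 of 30 listed genes and kept for 17. Of these 11 were higher and 6 lower, with 0 past limma's adjusted threshold and 2 with an unadjusted p under 0.05. Those 2 were Tcf3 and Gli1. Tcf3, a helix-loop-helix factor, read 90.3 ± 24.2 in knockout and 141 ± 8.46 in wild-type mice (log2 difference -0.69, limma adjusted p = 0.372). Gli1, a hedgehog effector and target, read 94.4 ± 22.7 and 58.1 ± 14.5 (0.71, limma adjusted p = 0.413). The vitamin D receptor Vdr (0.40) and the homeobox factor Cux1 (0.38) had the next smallest p. Tcf3 is a different gene from the listed Tcf7l1, which read 307 ± 15.4 and 333 ± 62.2 (-0.10, limma adjusted p = 0.858). Cux1 read 651.0, 650.0, 360.9, 321.5 and 463.6 in the knockout mice 1 to 5 and 335.8 to 406.9 in wild-type mice, so it too was highest in knockout 1, 2 and 5. Foxn1, which acts below Msx2 in the hair matrix and is named after its values were seen, was not kept. It read 65.0, 105.2, 34.8, 24.7 and 71.5 in the knockout mice 1 to 5 and 6.1, 4.4, 44.3 and 43.4 in the wild-type mice 1 to 4, with the same 3 mice highest.

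Of 114 listed homeobox genes outside these families 64 were measured and 21 kept, 11 higher and 10 lower, with 0 past limma's adjusted threshold and a median log2 difference of 0.01. Hopx, a small homeodomain protein of epidermal and follicle stem cells, had the smallest p, at 1090 ± 14 against 939 ± 60.8 (log2 difference 0.22, limma adjusted p = 0.520), with every knockout mouse above every wild-type mouse. Partners and chromatin regulators of homeobox genes (TALE and LIM cofactors, Eya, Polycomb and trithorax genes) were kept for 20 of 24 measured genes, 13 higher and 7 lower, with 0 past limma's adjusted threshold. Pknox1, a TALE protein that binds with Pbx, read 191 ± 9.40 against 151 ± 30.6 (log2 difference 0.35, limma adjusted p = 0.500). Suz12 (0.62), Lmo4 (0.26) and Ezh2 (0.29) followed by p.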

How the data were processed

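Whole-skin RNA of 9 mice was measured on 1 array each. Per the labels, the authors computed a signal per probe set with the MAS5 algorithm. The deposited values are natural logs of these signals, a scale settled from the values, whose exponentials are whole multiples of 0.1 to within 0.001 and whose trimmed means are near 200.1 in every array. They were divided by the natural log of 2 and not normalised again. Arrays have no sequencing depth, so the number of mice limits the precision. Members and gene names came from the platform annotation, and all 78 members matched the RefSeq gene table (GRCm38.p6) by Entrez identifier. None of the members' values was missing. The 2 genotypes were compared by limma 3.58.1 under R 4.3.3, whose lmFit and eBayes functions gave two-sided p-values with the prior variance following the mean signal. These p-values were adjusted by the Benjamini-Hochberg method across all 7658 kept probe sets, and 0.05 was the threshold. A list gene was read by its brightest kept probe set.

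The members, lists and tests were chosen with earlier results of these data known. Values per mouse are given for Dlx3 and Msx2, for members past an unadjusted p of 0.05 or without overlap, and for the brightest kept probe set of each family. Of other lists, up to 4 genes with the smallest p are named. Genes given beyond this, such as Dlx2, Dlx4, Prrx1 and Foxn1, were chosen after their values were seen. Alternatives covered the filter, pseudocount, scaling, trend, array weights, a hair follicle covariate, the number of decimals, the replicate number and each array left out. Hoxc13 was not analysed here.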

Additional observations from a re-analysis of the deposited data

Results flagged for a closer look

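In 7 of 70 groups tested (32 kept members, Msx2, Dlx2 and Dlx4, each in both genotypes) the highest or lowest mouse of a group stood apart from the others of its group by Dixon's criterion at the 95% level, which chance meets in about 1 in 20 groups. Among the kept members 6 of 64 groups (9.38%) met it, against 8.03% of the groups of all kept probe sets. In 5 of the 7 the mouse was knockout 4, at its lowest, which is 15.6% of the 32 kept members, against 5.03% of all kept probe sets. Hoxa2 read 49.4 there against 80.7 to 91.7 in the other knockout mice, Hoxa4 284.1 against 568.6 to 688.1, Hoxb8 96.9 against 236.4 to 292.4, Pitx1 60.4 against 114.8 to 141.3 and Six2 18.3 against 46.8 to 67.9. Hoxc6 read 12.8 in wild type 2 against 63.1 to 86.4 in the other wild-type mice. Dlx4 read 22.5 in wild type 4 against 14.7 to 15.7, all below the 40th percentile of the array.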

How the results depend on the processing

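The number of members past limma's adjusted threshold was 0 and became 1 within the 7-decimal arrays (Dlx3, 2.14), where 0.131% of all kept probe sets passed. The number with an unadjusted p under 0.05 was 1 (9.40% of all probe sets in that fit). It was 7 with no filter (8.51%), 2 with no trend (9.34%), 2 with array weights (13.6%) and 2 with the hair follicle covariate (10.5%). With 1 array left out it was 0 to 2, against 6.46% to 10.9% of all kept probe sets. The median difference of -0.035 ran from -0.140 to 0.093. Signs turned by more than the standard error in 16 of 683 comparisons. Within the 7-decimal arrays these were Hoxa2 (0.16), Hoxa4 (0.24), Hoxa9 (-0.26), Hoxb7 (0.21), Hoxc5 (0.17), Hoxc9 (-0.25), Lhx1 (0.23), Pitx1 (0.06) and Six2 (0.37). Within the 9-decimal arrays they were Hoxb6 (-0.21), Hoxc8 (-0.12), Dlx5 (0.16), Msx1 (-0.56) and Prrx2 (-0.31), and with the hair follicle covariate Hoxa7 (0.14) and Hoxb6 (-0.15). The cause was not tested.

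Whether the replicate numbers pair the mice is not stated. Deviations of same-numbered arrays correlated at 0.106, -0.0124, -0.0458 and 0.019. These values cannot settle it, since differently numbered arrays were not set beside them. With the replicate number as a block 0 members passed the adjusted and 0 the unadjusted threshold (0.0131% and 7.98% of all kept probe sets), and Dlx3 was 0.99 (limma adjusted p = 0.639). With 1 array left out, Dlx3 ran from 0.81 to 1.48 (limma adjusted p = 0.293 to 0.771). Signals below the percentile, such as those of Msx2 in wild-type mice, have uncertain log differences.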

Other observations

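Markers of other cell types are given as values. Macrophage and dendritic cell markers were lower in 9 of 9 kept genes (median log2 difference -0.29) and endothelial markers in 7 of 7 (-0.08). Adipocyte markers were higher in 4 and lower in 2 (0.30), and sebaceous markers higher in 1 and lower in 2 (-0.03). None of these genes passed limma's adjusted threshold; 4 macrophage, 1 endothelial, 1 adipocyte and 0 sebaceous markers had an unadjusted p under 0.05.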
